A study of Mus musculus with 12 samples.

Results

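The levels of 10 named genes of the male germ line were followed through epididymal white adipose tissue (eWAT): Prm1, Prm2, Tnp1, Tnp2, H1fnt, Akap4, Odf1, Dmrtb1, Usp44 and Sycp3. They are 10 of the 49315 genes in the count table. The 10 genes were chosen on their values in these libraries, 9 of them for high counts in the flox vehicle group, so their levels in that group and every contrast with it are a description and carry no test. The first 7 belong to the last stages of sperm formation and are called the late members, and Dmrtb1, Usp44 and Sycp3 are labelled as genes of earlier stages and called the early members.

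The libraries are bulk RNA-seq of eWAT, the fat pad beside the epididymis and testis, from mice fed a high-fat diet (HFD, 60% of energy from fat) for 12 weeks. All mice were male, age-matched and cage-matched littermates according to the methods of the study, and the labels give no age. There were 2 genotypes and 2 treatments, with 3 mice in each of the 4 groups. The flox mice carried miR-181a2b2flox/flox, in which the gene for 2 miR-181 family microRNAs is flanked by recombination sites but intact, and the KO mice carried miR-181a2b2-/-, the deletion in all tissues. Each genotype received vehicle or methotrexate (MTX, a folate antagonist) at 1 mg/kg once a week by intraperitoneal injection. The replicate numbers are those of the labels: flox vehicle 1, 3 and 4, KO vehicle 1, 2 and 3, flox MTX 1, 2 and 4, and KO MTX 2, 3 and 4.

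Sperm form in the testis in a fixed sequence. Spermatogonia divide, spermatocytes pair and recombine their chromosomes in meiosis, and round spermatids then elongate, pack their DNA with transition proteins and protamines in place of histones, and build a tail. Fully formed sperm leave the testis, are stored in the epididymis and no longer transcribe.

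Each library held between 19495310 and 23976469 counts. Levels are given as CPM, counts scaled to the size of the library and corrected by the trimmed mean of M values, where 3 counts, the upper limit that a count of 0 allows, came to between 0.125 and 0.154 CPM. Adipose identity was clear in all 12 libraries, since Fabp4, the fatty acid carrier of adipocytes, lay between 5176 and 22092 CPM. The target itself could not be checked, because the precursor genes of both microRNAs, Mir181a-2 and Mir181b-2, were hardly counted (2 counts in 1 library). The 3 flox vehicle libraries stood apart from the other 9 for most germ cell genes and for the summed Sertoli cell, Leydig cell and epididymis lists. Smaller amounts were carried by 2 further libraries. KO MTX replicate 4 had germ cell counts, and flox MTX replicate 1 had counts of epididymal genes, so results that rest on KO MTX replicate 4 are given with and without it. In bulk tissue, fewer cells of a type and less RNA per cell cannot be told apart. Among the 3 flox vehicle mice, the order of the Sertoli cell, Leydig cell and epididymis sums differed from that of the late members. A single gene made up most of the Leydig sum in replicates 1 and 3, and of the Sertoli sum in replicate 1. Macrophage genes were placed the other way from these lists, with a sum of 416 to 890 CPM in flox vehicle and 689 to 6749 CPM elsewhere. They were called higher, 8 of 8, both in KO vehicle and in flox MTX than in flox vehicle. Of all 18702 genes tested, 2598 and 1513 were called higher in these contrasts. The part of these lists in the results was not tested.

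Promoters are shown for the chromatin genes of late spermatids and for 2 genes of earlier stages, since sequence did not enter the choice of members. Of the 10 members, 8 matched an entry of the RefSeq promoter table (GRCm38.p6, H1fnt under its newer symbol H1f7), and Odf1 and Usp44 did not. Akap4 and Dmrtb1 each have 2 entries, and the one printed for Dmrtb1 is at the 5′ end of its gene span. Each sequence is the 250 bases before the annotated start, read 5′ to 3′ on the strand of the gene, in lower case with any motif searched in capitals.

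Prm1 (chr16:10796824-10797073, minus strand): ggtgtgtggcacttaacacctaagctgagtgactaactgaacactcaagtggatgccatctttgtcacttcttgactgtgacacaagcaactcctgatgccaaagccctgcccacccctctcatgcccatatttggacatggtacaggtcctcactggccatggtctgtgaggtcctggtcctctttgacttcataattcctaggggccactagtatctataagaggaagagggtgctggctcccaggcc
Prm2 (chr16:10792106-10792355, minus strand): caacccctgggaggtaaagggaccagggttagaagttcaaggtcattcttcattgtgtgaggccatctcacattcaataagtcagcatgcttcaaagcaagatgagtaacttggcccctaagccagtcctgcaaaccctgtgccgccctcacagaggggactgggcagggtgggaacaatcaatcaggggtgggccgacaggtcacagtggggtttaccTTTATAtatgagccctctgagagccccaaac
Tnp2 (chr16:10788656-10788905, minus strand): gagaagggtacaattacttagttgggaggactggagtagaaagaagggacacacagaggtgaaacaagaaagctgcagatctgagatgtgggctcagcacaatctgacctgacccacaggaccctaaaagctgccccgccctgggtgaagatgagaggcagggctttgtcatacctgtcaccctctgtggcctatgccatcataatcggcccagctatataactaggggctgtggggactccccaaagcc
Tnp1 (chr1:73015900-73016149, minus strand): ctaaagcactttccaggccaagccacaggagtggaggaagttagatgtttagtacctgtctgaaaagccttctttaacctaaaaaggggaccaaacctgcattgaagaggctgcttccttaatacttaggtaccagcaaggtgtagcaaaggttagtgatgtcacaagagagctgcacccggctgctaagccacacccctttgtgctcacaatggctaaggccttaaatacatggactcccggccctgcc
H1fnt (chr15:98257308-98257557, minus strand): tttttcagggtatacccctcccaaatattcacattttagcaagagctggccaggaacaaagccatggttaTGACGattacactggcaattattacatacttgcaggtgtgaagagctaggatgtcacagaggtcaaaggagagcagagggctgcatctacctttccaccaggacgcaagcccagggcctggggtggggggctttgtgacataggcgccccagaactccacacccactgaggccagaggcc
Dmrtb1 (chr4:107684231-107684480, minus strand): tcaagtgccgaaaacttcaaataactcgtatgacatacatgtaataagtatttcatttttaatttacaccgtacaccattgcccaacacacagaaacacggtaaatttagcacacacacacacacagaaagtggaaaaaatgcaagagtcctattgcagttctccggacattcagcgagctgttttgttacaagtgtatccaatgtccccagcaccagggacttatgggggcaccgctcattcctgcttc
Sycp3 (chr10:88459337-88459586, plus strand): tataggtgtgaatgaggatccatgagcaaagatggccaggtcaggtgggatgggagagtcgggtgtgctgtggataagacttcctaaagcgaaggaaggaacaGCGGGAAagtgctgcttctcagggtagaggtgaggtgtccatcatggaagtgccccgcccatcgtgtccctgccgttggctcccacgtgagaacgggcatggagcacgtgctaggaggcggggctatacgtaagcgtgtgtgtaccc

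The motifs were searched on both strands of the 300-base windows, which also take in 50 bases after the start. TGACGTCA, the full cAMP response element that spermatid transcription factors of the CREM family can bind, was in none of the members' windows and in 1.79% of 32851 mouse promoters. TGACG, its core, which lies inside the full element, was found in H1fnt alone, and 20.8% of all promoters hold it. TATAAA, the TATA box, was found in Prm2 as its reverse complement, a motif in 13.6% of promoters. GCGGGAA, an E2F6-type motif, was found in Sycp3 alone and occurs in 4.60% of promoters. CpG pairs numbered 15 in the Sycp3 window, 9 in that of Dmrtb1, 6 each in Tnp1 and H1fnt, 4 in Tnp2, 3 in Prm2 and 1 in Prm1, against a median of 7 over all promoters. The second Dmrtb1 window (chr4:107683540-107683839), not printed, held 28, and the windows of Akap4 held 0 and 1. GC content hardly set Sycp3 (57.0%) apart from Tnp2 (56.0%), H1fnt (55.7%) or Prm2 (54.0%). A match is a description of letters and not of binding.

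The protamines replace histones in the sperm nucleus. Prm2 had 6207, 2968 and 1129 counts in flox vehicle replicates 1, 3 and 4, which is 269, 116 and 52.0 CPM (146 ± 111, SD, n = 3). In KO vehicle it had 21, 16 and 4 counts, in flox MTX 6, 5 and 2, and in KO MTX 2, 1 and 95. The 3 flox vehicle libraries lay above the other 9 without overlap, and KO MTX replicate 4 lay above the remaining 8. Summed and scaled by depth, Prm2 was 233-fold higher in flox vehicle than in KO vehicle (95% counting interval 172 to 325), 767-fold higher than in flox MTX (448 to 1440) and 106-fold higher than in KO MTX (86.6 to 130). These intervals, and the intervals of shares below, cover counting error alone and not the spread between mice.

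Prm1, the other protamine, had 1386, 1405 and 531 counts in the flox vehicle libraries, or 60.1, 55.1 and 24.5 CPM (46.5 ± 19.3, SD, n = 3). Its counts were 4, 6 and 2 in KO vehicle, 2, 2 and 2 in flox MTX, and 2, 4 and 25 in KO MTX. Unlike Prm2, Prm1 was about as high in replicate 3 as in replicate 1, with a ratio of 0.918 against 0.433 for Prm2. Prm1, Prm2 and Tnp2 lie close together on the minus strand of chromosome 16, within 17904 bases, with Prm3 between Prm2 and Tnp2. In GRCm38 coordinates Prm1 spans chr16:10796326-10805839, Prm2 chr16:10791380-10796134 and Tnp2 chr16:10787936-10788660, and the RefSeq starts used above for Prm1 and Prm2 lie inside these longer spans.

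The transition proteins, which occupy the chromatin between the loss of histones and the arrival of protamines, followed the same division. Tnp1 (chr1:73015074-73015909) had 623, 800 and 380 counts in flox vehicle, or 27.0, 31.4 and 17.5 CPM (25.3 ± 7.09, SD, n = 3). Elsewhere its counts were 0, 2 and 2 in KO vehicle, 0, 1 and 1 in flox MTX, and 3, 0 and 16 in KO MTX. Tnp1 was the most even of the late members apart from H1fnt, differing 1.79-fold between replicates 3 and 4. Of its 437 exon bases, 40 (9.15%) are shared with 1700027A15Rik, a gene with 265, 152 and 51 counts in flox vehicle, 6 in KO MTX replicate 4 and 0 in the other 8 libraries. Tnp2 had 1137, 862 and 531 counts in flox vehicle, or 49.3, 33.8 and 24.5 CPM (35.9 ± 12.5, SD, n = 3). Its counts were 3, 5 and 3 in KO vehicle, 1, 3 and 0 in flox MTX, and 1, 0 and 21 in KO MTX.

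H1fnt (chr15:98255986-98257293), a linker histone of spermatids needed for nuclear shaping, had the cleanest division. It had 219, 188 and 124 counts in flox vehicle, or 9.49, 7.37 and 5.72 CPM (7.53 ± 1.89, SD, n = 3). It had 9 counts in KO MTX replicate 4 and 0 counts in the other 8 libraries. With 3 counts over the group as the limit that 0 allows, H1fnt was at least 164-fold higher in flox vehicle than in KO vehicle and at least 171-fold higher than in flox MTX. Against KO MTX the ratio was 59.2 (31.2 to 130), and all the KO MTX counts came from replicate 4.

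Akap4 and Odf1 encode parts of the sperm tail, the anchoring protein of the fibrous sheath and a protein of the outer dense fibres. Akap4 (chrX:7067519-7078609) had 670, 666 and 270 counts in flox vehicle, or 29.0, 26.1 and 12.4 CPM (22.5 ± 8.86, SD, n = 3). Its counts were 6, 0 and 0 in KO vehicle, 1, 0 and 2 in flox MTX, and 1, 0 and 9 in KO MTX. Odf1 (chr15:38219203-38226735) had 1395, 1683 and 295 counts in flox vehicle, or 60.4, 66.0 and 13.6 CPM (46.7 ± 28.8, SD, n = 3). Outside this group Odf1 had 0, 2 and 1 counts in KO vehicle, 5, 1 and 1 in flox MTX, and 1, 0 and 30 in KO MTX. After Prm2, Odf1 had the widest spread within flox vehicle among the late members, with replicate 1 at 4.45 times and replicate 3 at 4.86 times the level of replicate 4.

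**Figure D1:**
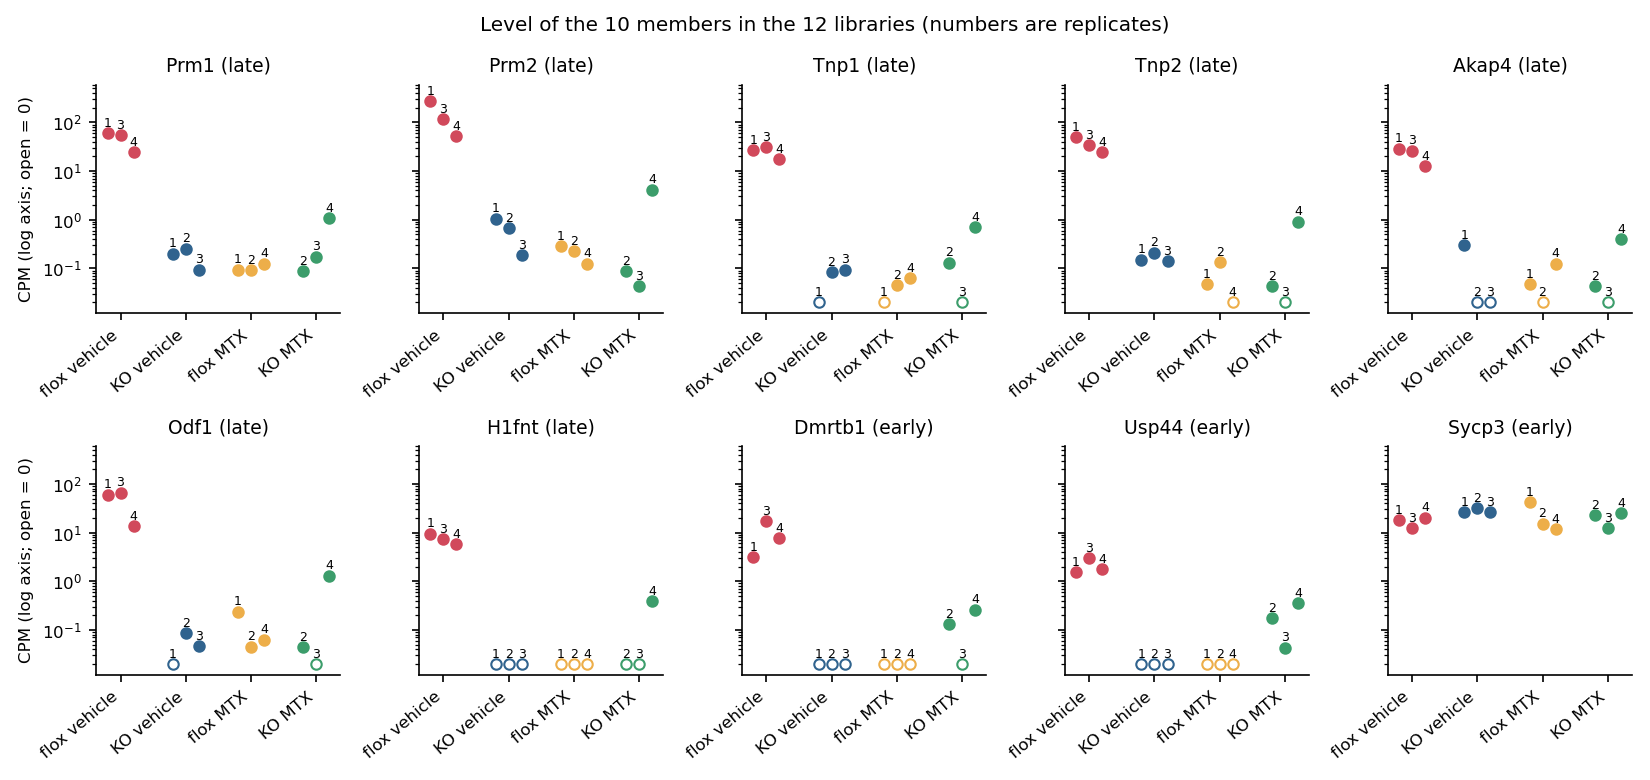
Levels (CPM, log axis) of the 10 members in each of the 12 libraries, with one panel per gene, one cluster of points per group of 3 mice, the replicate number above each point and open circles for libraries at 0. In 9 panels the 3 flox vehicle points lie above the rest and KO MTX replicate 4 is the next highest, while all Sycp3 points lie between 11.7 and 42.7 CPM.

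The early members did not move as one. Dmrtb1 (chr4:107676290-107684230), a DNA-binding protein that acts as germ cells pass from mitotic divisions into meiosis, had 71, 432 and 165 counts in flox vehicle, or 3.08, 16.9 and 7.61 CPM (9.21 ± 7.07, SD, n = 3). It was at 0 counts in KO vehicle and flox MTX, and had 3, 0 and 6 counts in KO MTX. It was therefore lowest in the flox vehicle library in which Prm2 was highest, and it was at least 206-fold higher in flox vehicle than in KO vehicle. Usp44 (chr10:93831555-93858088), a deubiquitinating enzyme that acts in the control of chromosome segregation, had 35, 76 and 38 counts in flox vehicle, or 1.52, 2.98 and 1.75 CPM (2.08 ± 0.787, SD, n = 3). It was also at 0 counts in KO vehicle and flox MTX, and had 4, 1 and 8 counts in KO MTX. Usp44 was the lowest member per length, and among the 9 members other than Sycp3 it had the smallest ratio to KO MTX, 11.5 (6.73 to 21.6).

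Sycp3 (chr10:88459569-88473236), a protein of the lateral element of the synaptonemal complex that holds paired chromosomes in meiosis, showed no such division. Its levels were 18.2, 12.2 and 20.3 CPM in flox vehicle (16.9 ± 4.22, SD, n = 3) and 26.3, 31.4 and 26.4 CPM in KO vehicle (28.0 ± 2.89). They were 42.7, 15.2 and 11.7 CPM in flox MTX (23.2 ± 16.9) and 22.8, 12.4 and 24.9 CPM in KO MTX (20.1 ± 6.70). The KO vehicle libraries lay above those of flox vehicle and of KO MTX, and flox MTX spanned the range of all the others. In the fit over all genes, Sycp3 was 0.73 higher on the log2 scale in KO vehicle than in flox vehicle (SE 0.43) and 0.46 higher in flox MTX than in flox vehicle (SE 0.43). Leaving out flox MTX replicate 1, the highest library for Sycp3, turned the second of these to -0.33.

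The exons of Sycp3 overlap those of Chpt1, a phospholipid-synthesis gene on the opposite strand, over 660 of 1264 exon bases (52.2%). Chpt1 was at 331 to 2518 CPM, and the strand setting of the counting is not given in the sources used here, so it is not known whether reads of the shared bases were told apart. Per 100 counts of Chpt1, Sycp3 had 1.65, 2.03 and 1.42 counts in flox vehicle, 2.92, 4.94 and 5.33 in KO vehicle, 2.78, 2.32 and 0.467 in flox MTX, and 3.10, 3.75 and 3.14 in KO MTX. The ratio to Chpt1 was thus not constant over libraries, and it was lower in the flox vehicle libraries than in every library of KO vehicle and KO MTX. Sycp1, which forms the central filaments of the same complex and was picked for display after its values were seen, had 37, 96 and 184 counts in flox vehicle, so it was lowest in replicate 1 and highest in replicate 4. Sycp3, lowest in replicate 3, had neither the order of Sycp1 nor the division of the other 9 members.

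**Figure D2:**
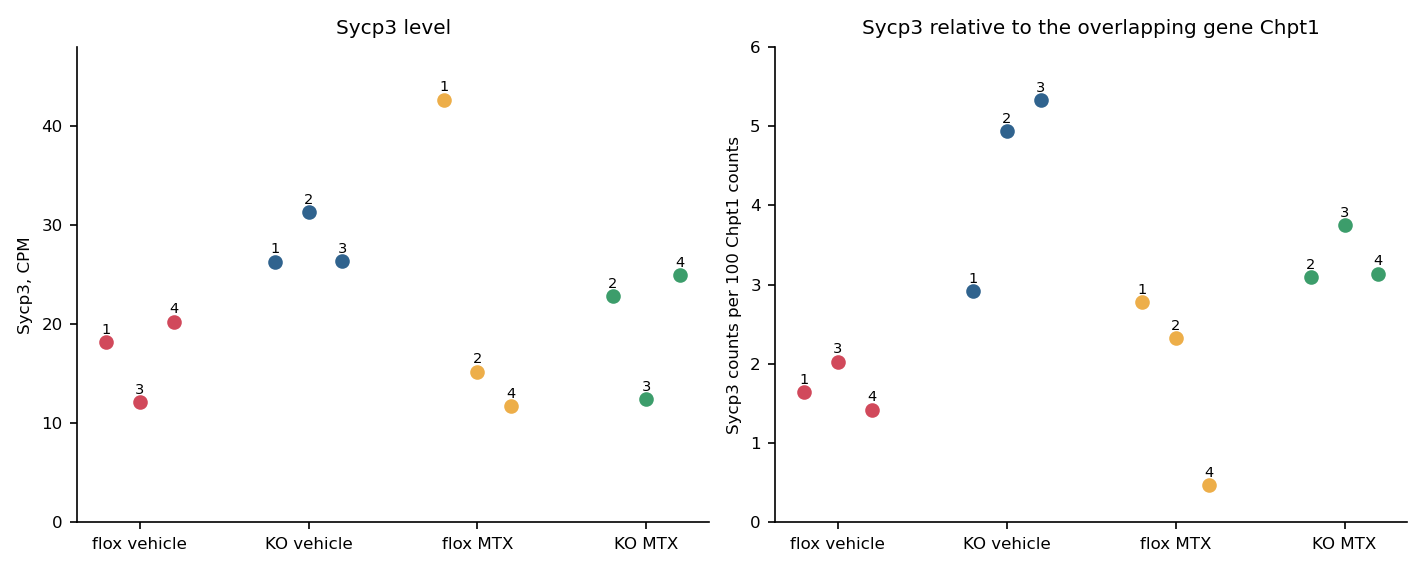
Sycp3 in the 12 libraries as CPM (left) and as counts per 100 counts of the overlapping antisense gene Chpt1 (right), by group, with the replicate number above each point. Sycp3 spans 11.7 to 42.7 CPM, and per 100 Chpt1 counts the flox vehicle points, at 1.42 to 2.03, lie below all others except flox MTX replicate 4 at 0.467.

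Counted over the members, 9 of 10 had each flox vehicle library above each of the other 9 libraries, all but Sycp3. Among all 18702 genes tested, 13% showed the same pattern (2426 genes), and because the members were picked for it the count is not read against that share. The 9 members kept the pattern with each of the 12 libraries left out in turn, an alternative chosen after seeing the data. In the contrasts that the choice of members used, the same 9 members were lower in KO vehicle than in flox vehicle, where 31.7% of all genes were called, and lower in flox MTX than in flox vehicle, where 24.2% were called. Nothing is read from these counts about the members. All 10 members passed the filter on low counts, all but Prm2 and Sycp3 only through the flox vehicle libraries in which they are high. A call here means an adjusted p under 0.1 by edgeR and a fold of at least 1.5.

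In the 8 libraries other than flox vehicle and KO MTX replicate 4, those 9 members were close to the counting limit. Of the 72 pairs of a member and a library, 60 were at or below 3 counts and 32 were at 0. H1fnt was at 0 in all 8 and Dmrtb1 in 7. Prm2 was the exception with up to 21 counts, in KO vehicle replicate 1.

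Per kilobase of exon, the protamines and transition proteins were at the top of the order in flox vehicle. In replicates 1, 3 and 4, Prm2 stood at 301, 130 and 58.2 CPM per kilobase, Prm1 at 105, 96.5 and 42.9, Tnp2 at 88.9, 61.0 and 44.2, and Tnp1 at 61.8, 71.8 and 40.1. The ranges of these 4 genes over the 3 mice overlapped, but within each library Prm2 was above Prm1. The others changed order between libraries, with Tnp2 above Prm1 in replicate 4 and Tnp1 above Tnp2 in replicate 3. Odf1 followed at 54.7, 59.7 and 12.3, and then Sycp3 at 14.4, 9.62 and 16.0, which was above Odf1 in replicate 4. Akap4, whose transcript is long, lay lower at 9.59, 8.63 and 4.11. H1fnt was at 7.26, 5.64 and 4.37, Dmrtb1 at 1.48, 8.14 and 3.65, and Usp44 at 0.376, 0.739 and 0.434 CPM per kilobase.

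The balance of late to early members differed between the 3 flox vehicle mice. The late members summed to 11637, 8572 and 3260 counts in replicates 1, 3 and 4, and Dmrtb1 and Usp44 together to 106, 508 and 203. The early pair thus made up 0.903% of the counts of these 9 genes in replicate 1 (95% Wilson interval 0.747 to 1.09), 5.59% in replicate 3 (5.14 to 6.09) and 5.86% in replicate 4 (5.13 to 6.69). Replicate 1 stood apart below the other two, which overlapped. As the mean log2 level per length of the 7 late members minus that of the 3 early members, the balance was 4.08, 3.10 and 2.33 (3.17 ± 0.876, SD, n = 3), and replicate 1 stayed highest and replicate 4 lowest in 14 of 14 alternative settings.

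The late members were not a fixed mixture either. Prm2 took 53.3% of the late counts in flox vehicle replicate 1 (52.4 to 54.2), and 34.6% in replicate 3 (33.6 to 35.6) and in replicate 4. The 5 chromatin proteins together took 82.3%, 72.6% and 82.7% of the late counts, with the tail genes Akap4 and Odf1 making up the rest. Replicate 3 therefore had the largest part of tail genes, and replicates 1 and 4 had nearly the same part from a late total that was over 3 times apart.

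KO MTX replicate 4 had 205 late counts, which is 8.95 CPM or 2.71% of the mean of the flox vehicle libraries. Dmrtb1 and Usp44 made up 14 of the 219 counts of the 9 genes there, or 6.39% (3.85 to 10.4), an interval that overlaps those of flox vehicle replicates 3 and 4 and lies above that of replicate 1. Prm2 was 46.3% and the chromatin proteins 81.0% of its late counts. In this library 9 of the 10 members were higher than in the 8 others outside flox vehicle, against 3.91% of all genes tested. The wider lists stood out there too, with 18 of 26 elongating spermatid genes above 3 counts against 4 to 9 in the 8 other libraries outside flox vehicle, and 21 of 25 round spermatid genes against 13 to 15. KO MTX replicate 2 differed in kind, with 7 counts of the early pair among 17 counts in all (41.2%, 21.6 to 64.0), while the KO vehicle libraries had 0 early counts among 34, 31 and 12.

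**Figure D3:**
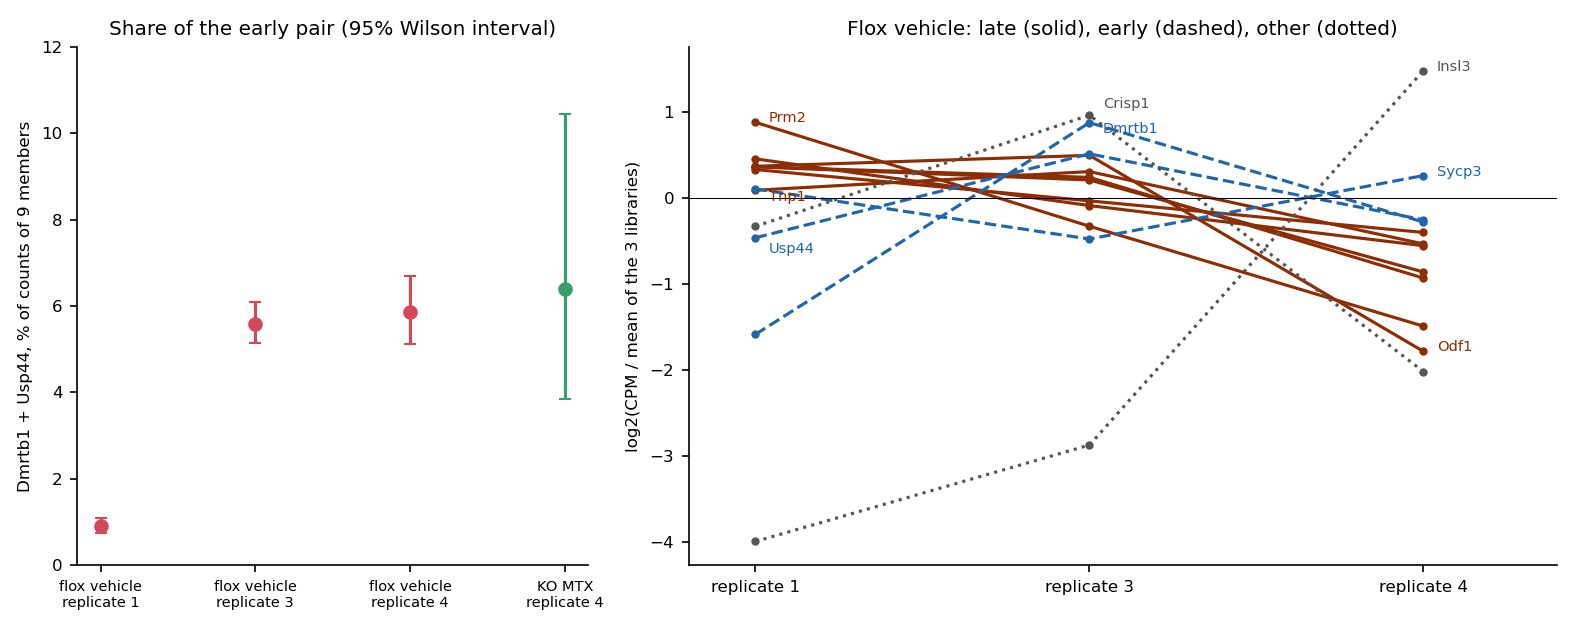
Left, the share of Dmrtb1 and Usp44 in the counts of the 9 members other than Sycp3, in percent with 95% Wilson intervals as bars: 0.903%, 5.59% and 5.86% in flox vehicle replicates 1, 3 and 4 and 6.39% in KO MTX replicate 4. Right, the log2 of CPM over the mean of the 3 flox vehicle libraries for late members (solid), early members (dashed) and Crisp1 and Insl3 (dotted), where lines join the values of one gene across mice that have no order, and Prm2 is highest in replicate 1 and Dmrtb1 in replicate 3.

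Marker lists of the stages were compared in the flox vehicle group. These lists were drawn up with earlier results of these data known, and counts of genes below are over those with more than 3 counts in a flox vehicle library, a choice that itself favours that group. Of 26 genes of elongating spermatids, all 26 had the 3 flox vehicle libraries above the other 9, against 13% of all genes tested. Their sum was 265, 233 and 116 CPM in replicates 1, 3 and 4 against 3.23 to 13.1 CPM elsewhere. Smcp, a protein of the sperm mitochondrial sheath, was at 56.7, 50.8 and 14.5 CPM, Gapdhs, the sperm form of a glycolytic enzyme, at 41.9, 29.1 and 12.7, and Oaz3, an antizyme of spermatids, at 33.6, 30.0 and 11.4. All 3 had the order of the late members, highest in replicate 1 and lowest in replicate 4.

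Of 25 round spermatid genes, 17 had the 3 flox vehicle libraries above the other 9, against 13% of all genes tested. The list summed to 125, 207 and 122 CPM against 25.4 to 51.3 elsewhere. Gsg1, a germ cell gene and the most abundant of this list, was placed like the late members, with 41.8, 29.0 and 13.4 CPM. Catsper2, a subunit of the sperm calcium channel, was at 9.88, 22.5 and 10.4 CPM, highest in replicate 3. Crem, the cAMP-responsive regulator of spermatid genes, was at 12.0 to 19.9 CPM, against 13.3 to 22.1 CPM in the other libraries. Of 32 spermatocyte genes, 20 had no overlap, against the same 13% of all genes. Their sums were 154, 344 and 236 CPM against 35.0 to 59.5 elsewhere. Ldhc, the germ cell lactate dehydrogenase, was at 14.2, 60.0 and 35.9 CPM, Ybx2, which stores messenger RNA in germ cells, at 25.9, 47.3 and 28.6, and Hspa2, a meiotic chaperone, at 18.4, 47.9 and 30.3. These 3 were lowest in replicate 1, as Dmrtb1 was.

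The share of genes that peaked in each flox vehicle mouse differed between the lists. Replicate 1 held the highest value of 5 of 7 late members, 13 of 26 elongating spermatid genes, 4 of 25 round spermatid genes and 1 of 32 spermatocyte genes, against 23.3% of all genes tested. Replicate 4 held the highest value of 0 of 7, 5 of 26, 7 of 25 and 17 of 32 in the same order, against 34.6% of all genes. Replicate 3 held the rest, against 42.1% of all genes. Other lists were unevenly placed too, with 7 of 10 adipocyte genes highest in replicate 1 and 8 of 8 macrophage genes in replicate 4.

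Most genes of the supporting cells of the testis were not placed like the late members. Sertoli cell genes summed to 27.9, 36.7 and 58.5 CPM in flox vehicle and 6.32 to 20.6 elsewhere, and 9 of 11 were highest in replicate 4. Of the 11, 3 had the 3 flox vehicle libraries above the other 9, against 13% of all genes tested. Sox9, a Sertoli cell regulator also used by other tissues, was an exception at 19.7, 16.6 and 14.6 CPM, the order of the late members. It made up most of the Sertoli sum in replicate 1. Cldn11, a protein of Sertoli cell junctions, was at 1.65, 6.28 and 15.4, with replicate 1 inside the 0.0625 to 2.58 CPM found elsewhere. Leydig cell genes, which make testosterone and related hormones, summed to 63.9, 151 and 236 CPM in flox vehicle and 8.44 to 20.3 elsewhere, and 7 of 9 were highest in replicate 4. Of these 9, 4 had the 3 flox vehicle libraries above all others, against the same 13% of all genes. Insl3, a peptide hormone of Leydig cells, was at 2.69, 5.84 and 119 CPM, and Cyp11a1, the first enzyme of steroid synthesis, at 0.867, 0.902 and 27.7. Cyp17a1, a later enzyme of the same pathway, was lowest in replicate 4, at 51.1, 130 and 36.7 CPM, and made up most of the Leydig sum in replicates 1 and 3. Replicate 4, with the lowest late members, thus had by far the most Insl3. Spermatogonia genes reached 133, 155 and 192 CPM in flox vehicle, inside the 111 to 227 CPM of the other libraries, and several of its genes are also used by other tissues.

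**Figure D4:**
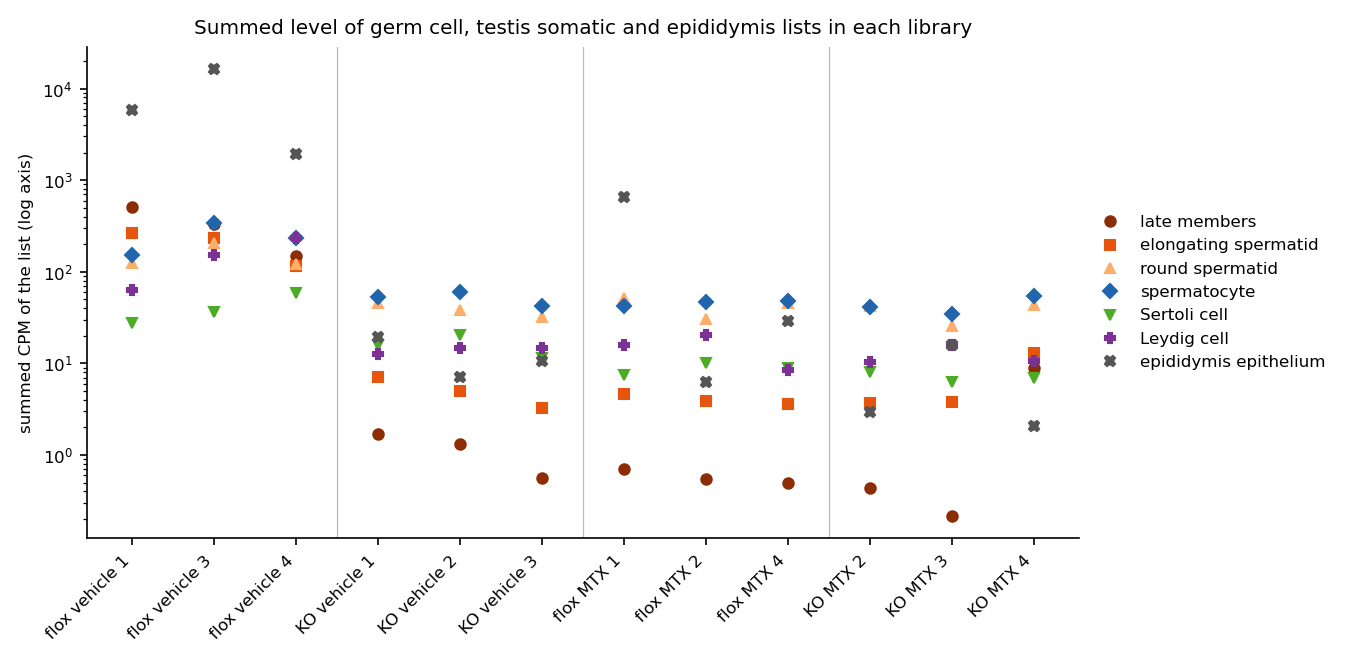
Summed CPM (log axis) of the late members and of marker lists for stages of the germ line, for Sertoli and Leydig cells and for epididymal epithelium in the 12 libraries, with one symbol per list. The 3 flox vehicle libraries lie above the other 9 in each of the 7 lists shown, and their order changes from replicate 1 highest (late members, 504, 336 and 150 CPM) to replicate 4 highest (Leydig cell, 63.9, 151 and 236 CPM).

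Epididymal genes were far more abundant than the members and were distributed differently. Crisp1, a secreted protein that coats sperm in the epididymis, was at 3746, 9176 and 1163 CPM in flox vehicle. It was at 399 CPM in flox MTX replicate 1, where the late members had 0.708 CPM, and at 0.131 CPM (3 counts) in KO MTX replicate 4, where they had 8.95 CPM. Per 1000 counts of Crisp1, the late members had 135, 36.6 and 129 counts in flox vehicle replicates 1, 3 and 4, and 1.77 in flox MTX replicate 1. The late members and the epididymal genes were therefore found together in the flox vehicle libraries and apart in these 2 others.

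**Figure D5:**
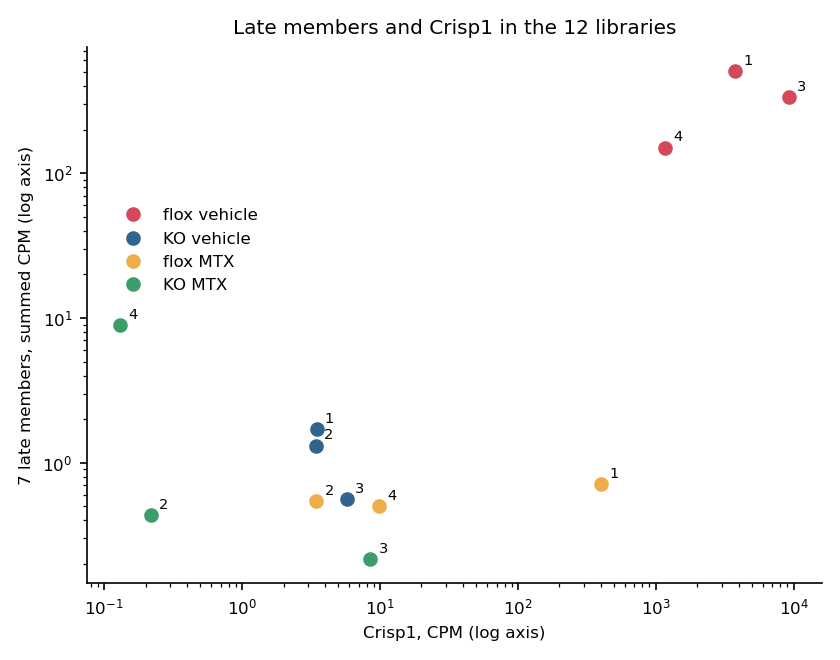
Summed CPM of the 7 late members against CPM of Crisp1 in the 12 libraries, on log axes, with one colour per group and the replicate number beside each point. The flox vehicle libraries are high in both, flox MTX replicate 1 is high in Crisp1 alone (399 CPM) and KO MTX replicate 4 in the late members alone (8.95 CPM).

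KO MTX against flox MTX, and KO MTX against KO vehicle, did not enter the choice of members, and both comparisons share the KO MTX libraries. Apart from Prm2 and Sycp3, though, the members passed the filter only through flox vehicle and lay near the counting limit in these groups outside KO MTX replicate 4. A fit without flox vehicle kept 2 members, Prm2 and Sycp3. A count of 0 calls therefore says little about the other 8, and calls and values given for them are a description. In KO MTX against flox MTX, 0 of the 10 members were called, where 0% of all genes were called by edgeR. Over all genes 4576 had an unadjusted p under 0.05, the smallest adjusted p was 0.104, and DESeq2 called 2734 genes. DESeq2 called 2 members there, Prm1 (adjusted p = 0.0912) and Tnp1 (adjusted p = 0.0922). In KO MTX against KO vehicle, 0 of the 10 members were called as well, where 0% of all genes were called by edgeR, 1491 genes had an unadjusted p under 0.05 and DESeq2 called 275 genes and 0 members.

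By edgeR's quasi-likelihood test with Benjamini-Hochberg adjustment, Prm1 was 2.09 higher on the log2 scale in KO MTX than in flox MTX (SE 0.95, adjusted p = 0.205) and Prm2 2.67 higher (SE 1.46, adjusted p = 0.280). Usp44 had 13 counts in KO MTX and 0 in flox MTX. Prm1 and Usp44 were fitted only because flox vehicle took them over the filter, so their values in these comparisons are a description. Against KO vehicle, Prm1 was 1.26 higher in KO MTX (SE 0.84, adjusted p = 0.760) and Prm2 1.16 higher (SE 1.21, adjusted p = 0.855). Of the wider lists, 0 of 23 elongating spermatid genes and 0 of 22 spermatocyte genes that passed the filter were called in either comparison. In both, edgeR called 0% of all genes, and the elongating spermatid list summed to 3.23 to 13.1 CPM outside flox vehicle. These counts of 0 therefore say little about the lists. The differences of the protamines rested on KO MTX replicate 4, and without it Prm2 was at -1.66 against flox MTX and at -3.18 against KO vehicle, and Prm1 at 0.34 and -0.48. Sycp3 was at -0.21 against flox MTX (SE 0.43, adjusted p = 0.793) and at -0.48 against KO vehicle (SE 0.43, adjusted p = 0.824). Its KO MTX libraries lay inside the range of flox MTX but below every KO vehicle library. These SEs use a spread estimated over all groups, and the SE against KO vehicle was 0.275 without flox MTX replicate 1.

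Of 17 distinct genes nearest to the members, 3 had the flox vehicle libraries above the other 9, against 13% of all genes tested. Of these, Clcn5, a chloride transporter near Akap4, was at 26.6 to 88.0 CPM in flox vehicle and 9.19 to 21.3 CPM elsewhere, and Glis1, a zinc finger factor near Dmrtb1, at 0.738 to 1.33 and 0.175 to 0.677 CPM. The other, Prm3 (chr16:10790505-10790914), is the remaining gene of the protamine cluster, with 1.65 to 4.68 CPM in flox vehicle and 0 to 0.131 CPM elsewhere. Socs1 (chr16:10782240-10785536), an inhibitor of cytokine signalling at the end of the same cluster, was at 1.14 to 1.82 CPM in flox vehicle and 1.61 to 3.81 CPM elsewhere. Metap2, a broadly used aminopeptidase 400 bases from Usp44, was at 129 to 143 CPM in flox vehicle and 124 to 168 CPM elsewhere.

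Each profile is the mean over its members of log2 levels, centred and scaled to an SD of 1 per gene. The genes most like the late profile over the 12 libraries were Spert, Znrf4, Actl7a, 4933402J07Rik and 1700019M22Rik, with Pearson's r of 0.997 to 0.999. Spert itself had 9.75, 7.77 and 4.61 CPM in replicates 1, 3 and 4 of flox vehicle. In all, 249 genes had an r above 0.95 with the late profile, and 0 genes had one above 0.95 with the profile of the early members, for which Ccdc158 was the closest at 0.94. The early profile averages Sycp3 with Dmrtb1 and Usp44, although Sycp3 did not share their pattern, so these counts are not compared. The 12 points of each correlation share libraries and depth, and the 3 flox vehicle libraries set most of its range. Ranking by Spearman's rho gave 5 other genes for each profile, so the leading names depend on the measure.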

How the data were processed

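The authors deposited 1 table of raw read counts per gene for 12 libraries. According to the labels and methods, reads were trimmed with Trimmomatic 0.36, aligned to GRCm38 with STAR 2.5.2b and counted with featureCounts of Subread 1.5.2. The labels give polyA RNA, the methods ribosomal RNA depletion, and the strand and multimapping settings are not given in the sources used here, so it is not known whether overlapping antisense genes were told apart.

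Columns were matched to samples by name, with 0 columns unmatched. Library totals were 19495310 to 23976469 counts. Levels are CPM after TMM scaling, and profiles used log2(CPM + 0.5). Genes were kept by expression in groups (18702), and all 12 libraries were fitted with edgeR 4.0.16 (quasi-likelihood test, R 4.3.3). A gene was called at a Benjamini-Hochberg adjusted p under 0.1 and a fold of at least 1.5, with DESeq2 1.42.0 as an alternative. Intervals of ratios are exact Poisson intervals of the lower group's count, with the flox vehicle count taken as fixed. Those of shares are Wilson intervals. On simulated data for KO MTX against flox MTX with 18702 genes, edgeR called 144 of 200 genes changed 4-fold and 11 unchanged genes, and DESeq2 called 162 and 77.

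The members and gene lists were chosen with earlier results of these data known. Named genes are the members, the 3 genes of each stage or cell type list with the highest mean CPM in flox vehicle of which a selection is printed, and the 5 genes most like each profile. Alternatives were other scaling, filters, tools and samples, a replicate block and each library left out. Promoters came from RefSeq (GRCm38.p6), and gene positions from the GRCm38 annotation.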

Additional observations from a re-analysis of the deposited data

How the results depend on the processing

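Of 360 values under other settings, 320 kept their direction and their side of the threshold or stayed within the spread between mice, 31 moved, 7 reversed and 2 passed the threshold newly. Causes were not tested. In KO MTX against flox MTX, the main count of 0 genes became 875 if low counts were not filtered, 2734 by DESeq2, 1491 with a minimum of 10 counts and 899 in a fit of 9 libraries, which tested 2 members. It lay between 0 and 4064 with 1 library left out, with 1028 when flox vehicle replicate 3 was omitted, 76 when flox MTX replicate 1 was and 4064 when flox MTX replicate 2 was. DESeq2 called 2 members, Prm1 (adjusted p = 0.0912) and Tnp1 (adjusted p = 0.0922), and leaving out a library gave 0 to 1 members, the 1 without flox MTX replicate 2. In KO MTX against KO vehicle, 0 genes became 275 with DESeq2, 20 with no filter and 0 to 215 with a library left out, 215 without KO vehicle replicate 3, and members stayed at 0. The count in flox MTX against flox vehicle was 4528, and became 2198 with a minimum of 10 counts, 2771 with the replicate block and 2219 to 5995 with a library left out. In KO vehicle against flox vehicle it was 5924, and lay between 4640 and 6828. Scaling by library size alone gave 766 higher and 3607 lower genes in flox MTX against flox vehicle, in place of 1513 and 3015. A minimum of 10 counts left Sycp3 as the one member tested, so 0 members were called in both contrasts with flox vehicle, against 9 in the main fit and 9 to 10 with a library left out, the 10 without flox MTX replicate 1.

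In the fit with the replicate number as a block, 0, 0, 5080 and 2771 genes and 0, 0, 9 and 9 members were called in KO MTX against flox MTX, KO MTX against KO vehicle, KO vehicle against flox vehicle and flox MTX against flox vehicle. Same-numbered libraries had a median r of 0.035 over 12 pairs (-0.27 to 0.25), against 0.011 over 42 other pairs (-0.38 to 0.45). These values cannot tell whether same-numbered mice shared a cage, a litter or a batch. With the block Sycp3 turned from -0.21 to 0.17 in KO MTX against flox MTX, and with a library left out it ranged from -0.52 to 0.59, with 0.59 without flox MTX replicate 1 and 0.04 without KO MTX replicate 3. It ranged from -0.33 to 0.78 in flox MTX against flox vehicle. Without KO MTX replicate 4, Prm2 was at -1.66 against flox MTX (range -1.66 to 3.24) and -3.18 against KO vehicle (range -3.18 to 1.73), and Prm1 at -0.48 against KO vehicle (range -0.48 to 1.75). Prm1 against flox MTX ranged from 0.34 to 2.57.

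The balance of late to early members in flox vehicle replicates 1, 3 and 4 was 3.15, 2.02 and 1.33 without division by length, 1.51, 0.73 and 0.35 with the elongating spermatid and spermatocyte lists, 3.20, 2.13 and 1.28 without Usp44, and 5.24, 3.64 and 3.35 without Sycp3. The genes most like the late and the early profile shared 0 of 5 names when ranked by Spearman's rho. Between 2437 and 3806 genes had flox vehicle above all others with a library left out, 3806 without flox vehicle replicate 4, and 9 to 9 members did. At 0 to 3 counts in most libraries, depth limits what can be said of the members outside flox vehicle.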

Other observations

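A few genes of the germ line and of Leydig cells, picked for display after their values were seen, were far higher in flox vehicle replicate 4 than in the other flox vehicle libraries. Stra8, which is induced when germ cells enter meiosis, had 4, 3 and 52 counts in flox vehicle replicates 1, 3 and 4. Dmrt1, a regulator of spermatogonia and Sertoli cells, had 4, 13 and 45, Piwil1, a small RNA partner of spermatocytes and round spermatids, had 18, 42 and 192, and Hsd3b1, a steroid-making enzyme of Leydig cells, had 6, 4 and 483. Other meiotic genes were placed differently. Prdm9, which marks sites of recombination, had 276, 263 and 228 counts, and 142 to 214 elsewhere. In CPM its flox vehicle range, 10.3 to 12.0, overlapped the 6.15 to 11.6 of the other libraries. Rec8, a meiotic cohesin, had 340, 553 and 225 counts, and 5 to 138 elsewhere.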
